A study of Homo sapiens with 70 samples.

Results

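The genes for the protein part of the mitochondrial ribosome were taken as the protein-coding entries whose symbol begins with MRPL or MRPS followed by a digit, which gave 77 of the 78932 genes in the count table. Of these, 51 encode proteins of the large ribosomal subunit, including MRPS18A and MRPS30, which sit in the large subunit despite their names. The other 26 encode proteins of the small subunit. All 77 passed the filter on low counts in every comparison.

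The mitochondrial ribosome is assembled from ribosomal RNA encoded in mitochondrial DNA and from proteins encoded in the nucleus, which are made in the cytosol and imported. It translates the messages of mitochondrial DNA, whose protein products are subunits of the respiratory chain and of ATP synthase. Many of its proteins have bacterial homologs, while others are found only in mitochondria. ZBTB11 is a zinc finger transcription factor, and in mouse embryonic stem cells it has been tied to nuclear genes for mitochondrial proteins together with GABP, a factor of the ETS family.

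The RNA came from MIA PaCa-2, an established cell line of pancreatic ductal adenocarcinoma, here a derivative resistant to the drug sotorasib. All cells carried dCas9-KRAB, a transcriptional repressor that guide RNAs direct to a promoter and that doxycycline (DOX) induces. The guides were sgZBTB11 #1, sgZBTB11 #2 and the control sgNS, and each line was given DOX or DMSO, the vehicle, and sampled at 5 hr, day 1, day 3 and day 5. This gave 70 libraries in 24 groups, with 3 libraries in each group except sgNS DMSO at day 1 and sgZBTB11 #1 DMSO at day 5, which had 2. The labels do not state whether replicate libraries are separate cultures, and p-values therefore reflect the spread among libraries, which may be technical. Bulk libraries cannot tell fewer cells with a message apart from less of it per cell.

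Libraries held between 12068842 and 20627642 counts, of which the 77 genes took 0.456% on average. Entries without a protein product that carry similar names, most of them pseudogenes, held 1.36% as many counts as the members. Markers of the carcinoma line were high (KRT8 at 1200 TPM, KRT18 at 2090 TPM and VIM at 3380 TPM on average), while INS and GCG, which mark pancreatic islets, were at 0 in all 70 libraries and PTPRC and CD3E, which mark leukocytes, averaged 0.00214 and 0.002 TPM. CD68, used as a marker of macrophages, averaged 2.17 TPM and was above 0 in all 70 libraries. CDH5 and COL3A1, used as markers of endothelium and fibroblasts, averaged 5.77 and 5.67 TPM, whereas PECAM1 and PDGFRB, of the same cell types, averaged 0.0109 and 0.01 TPM. The targeted gene fell with DOX in both sgZBTB11 lines. Its log2 change was -0.28, -0.45 and -0.42 at days 1, 3 and 5 in sgZBTB11 #1 and -0.59, -0.79 and -0.90 in sgZBTB11 #2, against -0.11, -0.06 and -0.15 in sgNS, where the value at day 5 also passed the threshold (adjusted p = 0.0323). At 5 hr the ZBTB11 change was -0.17 in sgZBTB11 #2 (adjusted p = 0.00723) and -0.0035 in sgZBTB11 #1 (adjusted p = 0.962), against a rise of 0.17 in sgNS (adjusted p = 0.00297).

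The first question was which members changed with DOX in the sgZBTB11 lines beyond their change in sgNS. At day 3, 5 of the 77 members were lower by this measure and none was higher, all 5 in the large subunit. The measure, called the net change here, is the mean log2 change with DOX of both sgZBTB11 lines minus that of sgNS, tested with edgeR at an adjusted p below 0.05 over all genes. By the same rule 0.493% of the 16645 genes tested were called in either direction and 0.336% were lower. The median net change of the members was -0.07, against -0.0012 for all genes, and 64 of the 77 members were below 0. MRPL40 fell by 0.41 (SE 0.063, adjusted p = 0.000105), MRPL48 by 0.53 (SE 0.104, adjusted p = 0.00714), MRPL30 by 0.30 (SE 0.062, adjusted p = 0.011), MRPL58 by 0.38 (SE 0.083, adjusted p = 0.0227) and MRPL16 by 0.22 (SE 0.052, adjusted p = 0.0368). MRPL41 lay just outside the threshold at -0.21 (adjusted p = 0.0569).

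MRPL40 (ENSG00000185608.9, chromosome 22, 19432545 to 19436075 in GRCh38.p14) encodes a protein of the central protuberance, the top of the large subunit that faces the small one. In CPM, the TMM-scaled count divided by library size, a scale that compares libraries and not genes, MRPL40 at day 3 was at 52.8, 50.9 and 48.9 with DOX against 60.1, 55.9 and 60 with DMSO in sgZBTB11 #1. In sgZBTB11 #2 it was at 49.1, 48.9 and 42.4 CPM with DOX against 60.5, 59.8 and 63.7 CPM with DMSO. In sgNS it was at 62.9, 63 and 64.5 CPM with DOX against 63.5, 54.9 and 58.3 CPM with DMSO. DOX and DMSO libraries did not overlap in either sgZBTB11 line and overlapped in sgNS.

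MRPL48 (ENSG00000175581.14, chromosome 11, 73787874 to 73865133) encodes another central protuberance protein. At day 3 it was at 12.3, 13.1 and 12.5 CPM with DOX against 18.1, 14.8 and 15.8 CPM with DMSO in sgZBTB11 #1, and at 10.2, 10.6 and 10.4 CPM with DOX against 16.2, 14.6 and 15.6 CPM with DMSO in sgZBTB11 #2. The sgNS libraries were at 15.4, 15.7 and 17.8 CPM with DOX against 17.6, 14.2 and 15.1 CPM with DMSO. All 6 sgZBTB11 DOX libraries of MRPL48 lay below every other library of that day. A pair of non-coding genes overlap MRPL48, and reads of overlapping genes may not be separated, since the strand setting of the counting is not given in the sources used here.

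MRPL30 (ENSG00000185414.20, chromosome 2, 99181184 to 99199561) encodes the homolog of the bacterial protein L30. At day 3 it was at 38.5, 35.4 and 38.2 CPM with DOX against 43.6, 45.5 and 49.4 CPM with DMSO in sgZBTB11 #1, and at 37.3, 38 and 34.5 CPM with DOX against 51.8, 48 and 49 CPM with DMSO in sgZBTB11 #2. In sgNS it was at 46, 46.8 and 46.5 CPM with DOX against 48.8, 49.9 and 48.5 CPM with DMSO. The groups were apart in all 3 lines, by a wider gap in the sgZBTB11 lines than in sgNS.

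MRPL58 (ENSG00000167862.10, chromosome 17, 75012670 to 75021261), also known as ICT1, encodes a peptidyl-tRNA hydrolase built into the large subunit, which can free stalled chains. At day 3 it was at 17.9, 17.6 and 17.3 CPM with DOX against 21.2, 21.4 and 19.9 CPM with DMSO in sgZBTB11 #1, and at 17.5, 18.2 and 17.4 CPM with DOX against 22.3, 22.1 and 21.6 CPM with DMSO in sgZBTB11 #2. The sgNS libraries were at 23.1, 20.4 and 22.2 CPM with DOX against 22.5, 19.5 and 19.4 CPM with DMSO. MRPL16 (ENSG00000166902.5, chromosome 11, 59806140 to 59810778), the homolog of bacterial L16, showed smaller shifts, with 67.4, 64.1 and 66.8 CPM with DOX against 73.1, 70.8 and 71.2 CPM with DMSO in sgZBTB11 #1 and 64.6, 60.2 and 60.6 CPM with DOX against 69, 73.2 and 72.1 CPM with DMSO in sgZBTB11 #2. Its sgNS libraries were at 66.3, 66.5 and 69.8 CPM with DOX against 65.5, 62.6 and 67 CPM with DMSO. For both genes the DOX libraries lay below the DMSO libraries in each sgZBTB11 line, and the groups overlapped in sgNS.

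**Figure D1:**
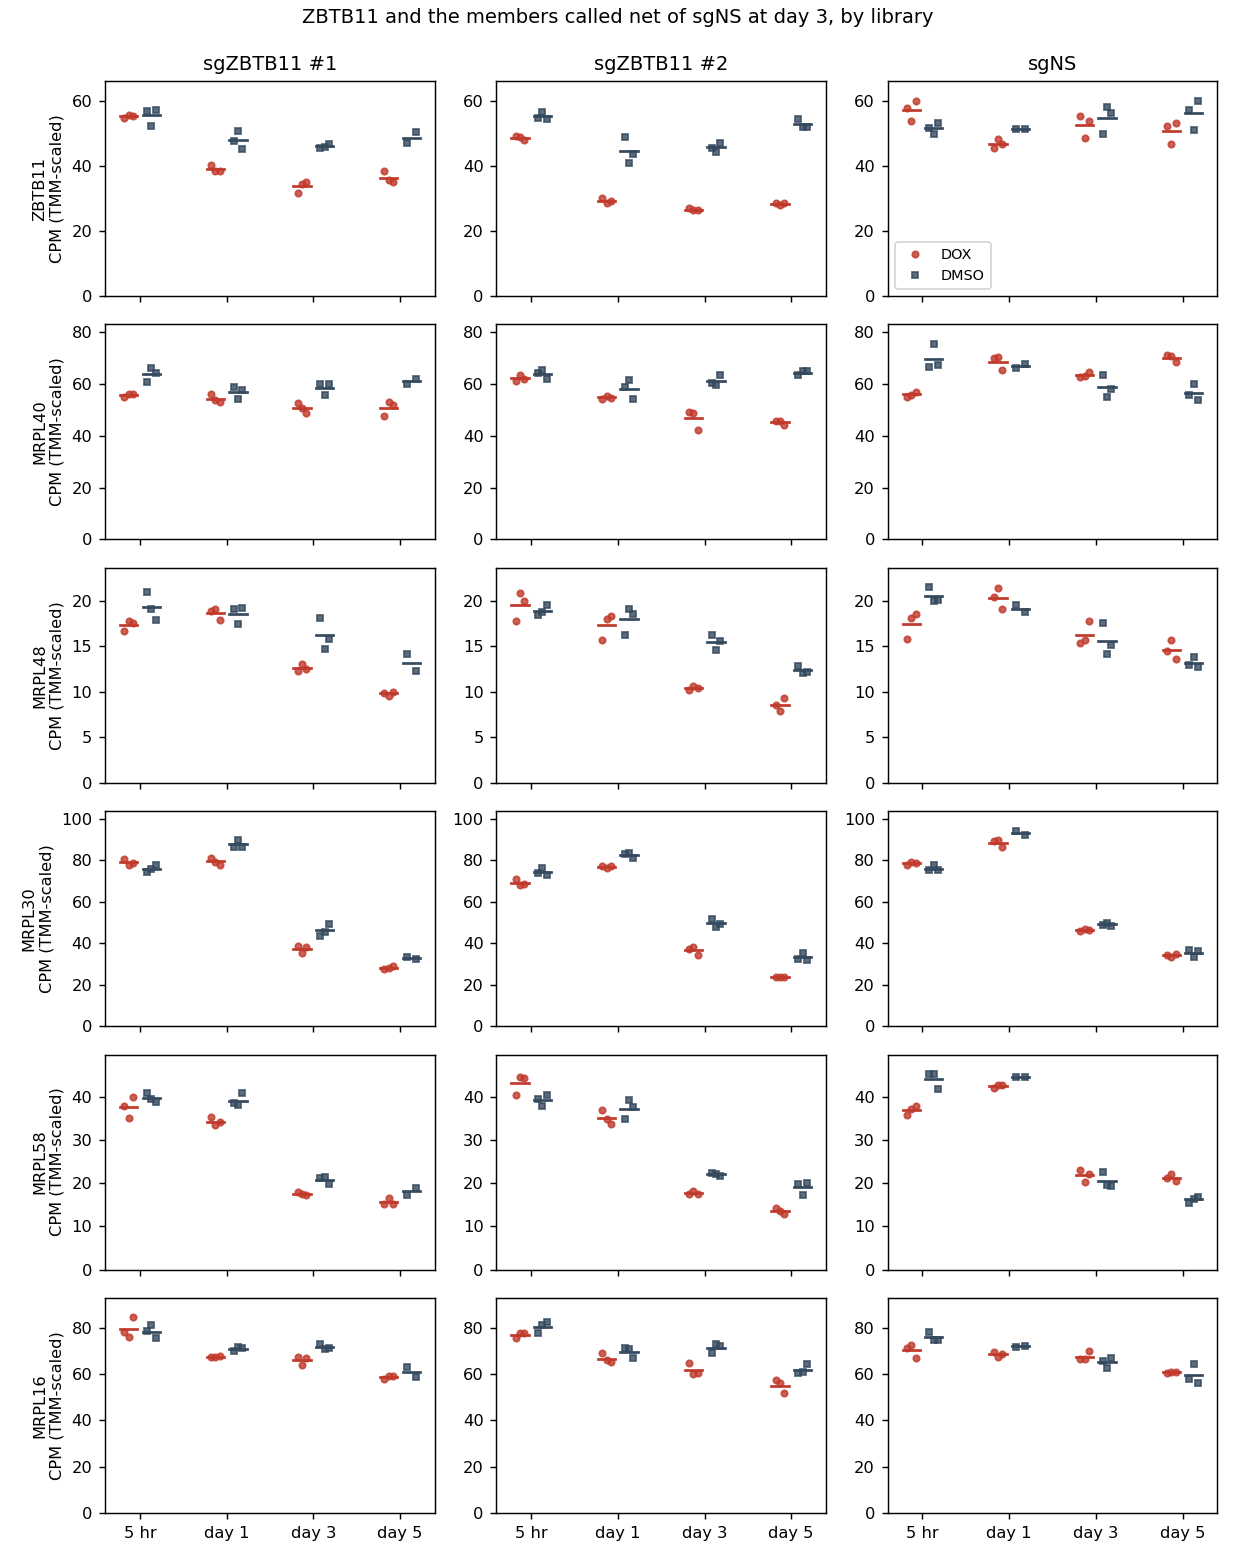
TMM-scaled CPM of ZBTB11, MRPL40, MRPL48, MRPL30, MRPL58 and MRPL16 in every library, by line and time. Red circles are DOX libraries, drawn left of the DMSO libraries (squares), and bars are group means. At days 3 and 5 the DOX libraries of MRPL40 lie below the DMSO libraries in both sgZBTB11 lines, and at day 5 they lie above them in sgNS.

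The stretch of 200 bases before the annotated start of these genes is shown for 4 of the 5, because each of these 4 holds there a motif that was counted over all members. The sequences are those of RefSeq for GRCh38.p14, 5′ to 3′ on the plus strand, which carries all 4 genes, with CCGGAAG, a core that ETS factors such as GABP can bind, or its reverse complement CTTCCGG in capitals. They span chr22:19432345-19432544 for MRPL40, chr11:73787674-73787873 for MRPL48, chr2:99180984-99181183 for MRPL30 and chr17:75012470-75012669 for MRPL58.
MRPL40: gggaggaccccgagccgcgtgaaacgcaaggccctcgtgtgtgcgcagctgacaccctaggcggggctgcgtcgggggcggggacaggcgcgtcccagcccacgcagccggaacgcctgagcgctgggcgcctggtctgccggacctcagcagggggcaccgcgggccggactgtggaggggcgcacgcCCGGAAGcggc
MRPL48: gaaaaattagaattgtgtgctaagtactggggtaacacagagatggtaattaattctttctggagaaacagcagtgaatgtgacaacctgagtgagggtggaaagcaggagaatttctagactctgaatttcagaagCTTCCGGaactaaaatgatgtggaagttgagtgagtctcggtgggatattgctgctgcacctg
MRPL30: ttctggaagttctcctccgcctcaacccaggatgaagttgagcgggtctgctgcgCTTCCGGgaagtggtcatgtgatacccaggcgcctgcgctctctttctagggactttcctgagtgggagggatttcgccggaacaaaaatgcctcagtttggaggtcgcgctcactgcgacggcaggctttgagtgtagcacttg
MRPL58: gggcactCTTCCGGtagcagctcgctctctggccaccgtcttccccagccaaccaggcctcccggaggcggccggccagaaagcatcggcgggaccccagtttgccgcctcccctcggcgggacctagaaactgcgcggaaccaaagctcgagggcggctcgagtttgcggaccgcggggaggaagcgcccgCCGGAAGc
MRPL58 held the motif in 2 places, and the match in MRPL16, 6 bases before its start, runs across the start base. Windows from 250 bases before to 50 bases after the start were found for 69 members. In either orientation CCGGAAG stood in 30 of the 69 windows (43.5%), against 12.2% of 27305 windows of all genes and 16.5% of 15843 windows of protein-coding genes. All 5 members called net of sgNS at day 3 held it, but of those called net of sgNS at day 5, 14 of 32 did (43.8%). Among the members called by the slope on ZBTB11 level, described later, 7 of 16 did (43.8%), against 23 of 53 of the members not so called (43.4%). AAGATGGC, the core bound by YY1, stood in 30.4% of the members' windows and in 3.52% of all windows. It stood in 0 of the 5 members called at day 3 and in 7 of the 32 called at day 5. By the slope it stood in 2 of 16 members called, against 19 of 53 not called. GCGCATGC, the core of the NRF1 site, stood in 8.7% of the members' windows and in 3.68% of all windows. It stood in 0 of the 5 members called at day 3 and in 2 of the 32 called at day 5. By the slope it stood in 0 of 16 members called, against 6 of 53 not called. Differences between called and other members were not tested for any of the motifs. These are counts of letters in a window and say nothing of binding.

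The lines were also tested one by one at day 3. In sgZBTB11 #1, 5 members were lower with DOX and 0 higher, where 0.733% of all genes were called and 0.541% were lower. In sgZBTB11 #2, 12 were lower and 0 higher, where 1.17% of all genes were called and 0.895% were lower, and 3 of the 12 were in the small subunit. In sgNS edgeR called 0 members, where 0.877% of all genes were called, and DESeq2 also called 0. By edgeR 13 members had an unadjusted p below 0.05, as did 2029 of the 16645 genes tested. MRPL30 fell by 0.31 in sgZBTB11 #1 (SE 0.053, adjusted p = 0.000526) and by 0.44 in sgZBTB11 #2 (SE 0.049, adjusted p = 5.39e-08). MRPL48 fell by 0.36 in sgZBTB11 #1 (SE 0.088, adjusted p = 0.0389) and by 0.57 in sgZBTB11 #2 (SE 0.086, adjusted p = 3.55e-05). MRPL40 fell by 0.21 in sgZBTB11 #1 (SE 0.053, adjusted p = 0.0411) and by 0.39 in sgZBTB11 #2 (SE 0.051, adjusted p = 1.8e-06). These 3 members were lower in sgZBTB11 #1, in sgZBTB11 #2 and net of sgNS, which held for 14 of the 16645 genes (0.0841%). The 3 tests share libraries, so that they are not independent of one another.

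The net calls at day 3 rested on few libraries of sgNS. The count was 1 without sgNS DOX replicate 3, 2 without sgNS DMSO replicate 2 or replicate 3, 3 without sgNS DOX replicate 1 or replicate 2, and 8 without sgNS DMSO replicate 1. MRPL40 was called in all 18 fits that left out 1 library, whereas MRPL48 missed the threshold in 2, MRPL30 in 3, MRPL58 in 4 and MRPL16 in 10. Within sgZBTB11 #1 the count was 1 without its DMSO replicate 1 or its DOX replicate 2 or 3 and 2 without its DMSO replicate 2. Within sgZBTB11 #2 it was 7 without its DMSO replicate 3. The members lower in all 3 tests were 0 without sgNS DOX replicate 3 and 1 without sgZBTB11 #1 DMSO replicate 1 or 3 or sgZBTB11 #1 DOX replicate 2 or 3. With a trend on transcript length removed, 3 members were called net of sgNS (MRPL40, MRPL30 and MRPL48) and 3 in sgZBTB11 #1. DESeq2 called only MRPL40 net of sgNS, 1 member in sgZBTB11 #1 and 6 in sgZBTB11 #2, and none in all 3 tests.

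**Figure D2:**
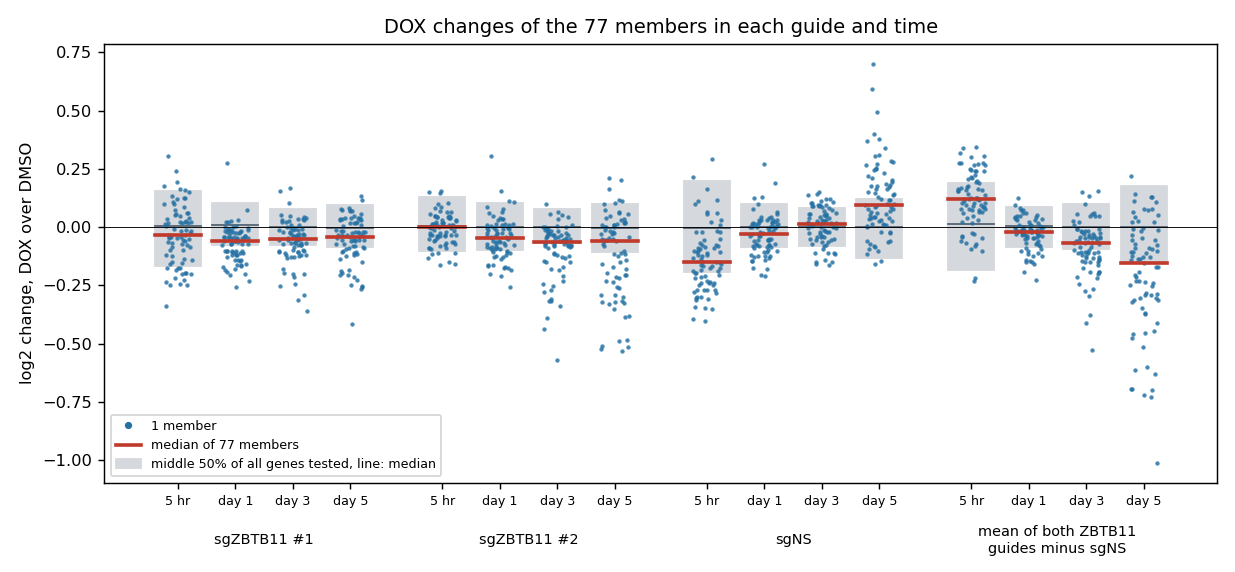
Log2 change with DOX of all 77 members in each line and time, and net of sgNS. Points are members, red lines their medians, and grey bands the middle 50% of all genes tested, with the median as a thin line. The net median is -0.07 at day 3 and -0.152 at day 5, while the sgNS median is -0.152 at 5 hr and 0.094 at day 5.

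By day 5 members were lower with DOX in the sgZBTB11 lines, and members of the control line had moved as well, upward. In sgZBTB11 #1, 3 were lower and 0 higher, where 1.14% of all genes were called and 0.773% were lower. In sgZBTB11 #2, 26 were lower and 0 higher, where 9% of all genes were called and 6% were lower. In sgNS, 27 were higher and 0 lower, where 17.3% of all genes were called and 8.87% were higher. Net of sgNS, 35 were lower and 0 higher, where 19.2% of the 16809 genes tested were called and 10.3% were lower. With a trend on transcript length removed, the counts were 23 lower and 4 higher in sgZBTB11 #2 and 24 lower and 4 higher net of sgNS. The share of all genes called with the trend removed is not given here, so that these counts cannot be set against it. The median change of the members was -0.042 in sgZBTB11 #1 and -0.061 in sgZBTB11 #2, against 0.094 in sgNS, and the median net change was -0.152, against 0.0001 for all genes. The summed level of the 77 genes was 3301 ± 29 CPM with DOX and 3431 ± 6.4 CPM with DMSO in sgZBTB11 #1 (SD, n = 3 and n = 2), 3187 ± 32 and 3448 ± 11 CPM in sgZBTB11 #2 (n = 3 each), and 3681 ± 19 and 3372 ± 79 CPM in sgNS (n = 3 each). The groups' share of counts from mitochondrial DNA was 32.9% with DOX and 33.6% with DMSO in sgZBTB11 #1, 31.5% and 31.3% in sgZBTB11 #2, and 29.5% and 26.3% in sgNS. Its part in these changes was not tested. No count with the length trend removed is given for sgNS. In the authors' TPM, the sgNS means with DOX and DMSO were 120 and 84.1 for MRPL33, 103 and 95.4 for MRPL40, and 352 and 353 for MRPS6. In CPM they were 35.5 and 21.7, 70.2 and 56.6, and 340 and 312. The rise in sgNS thus varied with the measure among these members, which were picked after their values were seen.

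MRPL40 and MRPL48 were again lower in both sgZBTB11 lines and net of sgNS, as were 60 of all genes (0.357%). MRPL40 at day 5 was at 47.8, 53.2 and 51.8 CPM with DOX against 59.9 and 62.2 CPM with DMSO in sgZBTB11 #1. In sgZBTB11 #2 it was at 45.9, 45.8 and 44.3 CPM with DOX against 63.5, 65 and 64.9 CPM with DMSO, and in sgNS at 71.3, 70.8 and 68.6 CPM with DOX against 55.9, 60.2 and 53.8 CPM with DMSO. MRPL40 thus stood lower with DOX in both sgZBTB11 lines and higher in sgNS, with no overlap in any line. It fell by 0.26 in sgZBTB11 #1 (SE 0.052, adjusted p = 0.00377), by 0.51 in sgZBTB11 #2 (SE 0.047, adjusted p = 3.82e-12) and by 0.69 net of sgNS (SE 0.056, adjusted p = 1.81e-14).

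MRPL48 at day 5 was at 9.88, 9.59 and 10 CPM with DOX against 14.1 and 12.2 CPM with DMSO in sgZBTB11 #1 and at 8.58, 7.95 and 9.30 CPM with DOX against 12.9, 12.1 and 12.2 CPM with DMSO in sgZBTB11 #2. In sgNS it was at 14.5, 15.7 and 13.7 CPM with DOX against 13, 13.8 and 12.7 CPM with DMSO, where the groups overlapped. It fell by 0.42 in sgZBTB11 #1 (SE 0.103, adjusted p = 0.0241) and by 0.52 in sgZBTB11 #2 (SE 0.096, adjusted p = 6.89e-05). The calls in sgZBTB11 #1 hung on single libraries, with 0 members called without its DOX replicate 1 and 1 without its DMSO replicate 2. The members lower in all 3 tests were 0 without sgZBTB11 #1 DOX replicate 1 and 1 without its DOX replicate 3 or its DMSO replicate 1 or 2.

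Several net changes at day 5 joined a fall in sgZBTB11 #2 to a rise in sgNS. MRPL33, the homolog of bacterial L33, was at 19.4, 23.5 and 19.7 CPM with DOX against 22.1 and 22.5 CPM with DMSO in sgZBTB11 #1. In sgZBTB11 #2 it was at 16.2, 18.7 and 19.5 CPM with DOX against 27.8, 23.4 and 26.8 CPM with DMSO, and in sgNS at 35.5, 35.5 and 35.5 CPM with DOX against 21.1, 22 and 22 CPM with DMSO. Groups overlapped in sgZBTB11 #1, while MRPL33 was lower with DOX in sgZBTB11 #2 and higher in sgNS. MRPL33 fell by 1.01 net of sgNS (SE 0.088, adjusted p = 1.88e-13) and rose by 0.70 in sgNS alone (SE 0.067, adjusted p = 6.81e-12).

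MRPL36, the homolog of bacterial L36, at day 5 was at 31.2, 32.5 and 32.4 CPM with DOX against 33.9 and 29.1 CPM with DMSO in sgZBTB11 #1, at 25.1, 24.3 and 24.3 CPM against 31.9, 29.1 and 29.4 CPM in sgZBTB11 #2, and at 43.2, 44.4 and 45.8 CPM against 28, 28.4 and 31 CPM in sgNS. MRPL51, a large subunit protein without a bacterial homolog, was at 90, 95.5 and 97 CPM with DOX against 99.6 and 106 CPM with DMSO in sgZBTB11 #1, at 84.4, 88.2 and 91.5 CPM against 113, 107 and 109 CPM in sgZBTB11 #2, and at 131, 131 and 128 CPM against 99.3, 102 and 97.1 CPM in sgNS. Both genes were lower with DOX in sgZBTB11 #2 and higher in sgNS without overlap. In sgZBTB11 #1 the DOX libraries of MRPL51 lay below the DMSO libraries without a call by edgeR (adjusted p = 0.177), and the groups of MRPL36 overlapped. The net change was -0.73 for MRPL36 (SE 0.073, adjusted p = 1.9e-11) and -0.60 for MRPL51 (SE 0.046, adjusted p = 2.37e-15). NDUFS6 overlaps MRPL36, so that their reads may not be separated.

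In the small subunit, MRPS7, the homolog of bacterial S7, at day 5 was at 45.2, 46.2 and 41.8 CPM with DOX against 46.7 and 47 CPM with DMSO in sgZBTB11 #1, at 39.6, 37 and 37 CPM against 51.5, 54.2 and 56.9 CPM in sgZBTB11 #2, and at 51.9, 55.4 and 54.5 CPM against 39.2, 45.5 and 37.9 CPM in sgNS. MRPS23, a protein without a bacterial homolog, was at 28.4, 29.8 and 28.8 CPM with DOX against 31.7 and 30.5 CPM with DMSO in sgZBTB11 #1, at 23.1, 25.3 and 25.6 CPM against 31.5, 31.7 and 28.5 CPM in sgZBTB11 #2, and at 38.9, 34.7 and 41.8 CPM against 26.5, 27.9 and 27.5 CPM in sgNS. For both, the DOX libraries lay below the DMSO libraries in each sgZBTB11 line and above them in sgNS. Net changes were -0.69 for MRPS7 (adjusted p = 2.84e-11), which overlaps GGA3 and MIF4GD, and -0.70 for MRPS23 (adjusted p = 3.08e-10). MRPS35, MRPL58, MRPS6 and MRPL3 completed the 10 members with the smallest p, at -0.46, -0.72, -0.23 and -0.31. The net call count at day 5 stayed between 29 and 37 when 1 library was left out.

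The second question was which members followed the level of ZBTB11 from library to library. Over the 52 libraries of days 1, 3 and 5, the log2 level of each gene was fitted on that of ZBTB11, with a mean for each line and time and a DOX term for each time, so that the slope rests on the differences in ZBTB11 that these terms leave. A slope of 1 means that the gene changed by the same factor as ZBTB11. Slopes were above 0 and past the threshold in 17 members and below 0 in none, where 3.64% of the 17833 genes tested were called and 2.5% were above 0. The median slope of the members was 0.096, against -0.0002 for all genes, and 63 of the 77 were above 0. The differences in ZBTB11 left to the fit include those between lines in the change with DOX. The fit also shares its libraries with the tests by day, so that the slope is not separate from the net change.

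Among the large subunit members, MRPL40 had a slope of 0.59 (SE 0.101, adjusted p = 0.000477), MRPL48 of 0.52 (SE 0.116, adjusted p = 0.00562), MRPL58 of 0.48 (SE 0.103, adjusted p = 0.0049) and MRPL30 of 0.37 (SE 0.059, adjusted p = 5.93e-05). MRPL1, the homolog of bacterial L1, had a slope of 0.45 (SE 0.092, adjusted p = 0.00251), MRPL39 of 0.26 (SE 0.070, adjusted p = 0.0242) and MRPL16 of 0.19 (SE 0.054, adjusted p = 0.0323). Among the small subunit members, MRPS23 had a slope of 0.37 (SE 0.101, adjusted p = 0.0324), MRPS31 of 0.30 (SE 0.085, adjusted p = 0.0323) and MRPS6, which overlaps SLC5A3, of 0.20 (SE 0.042, adjusted p = 0.00429). MRPL11, MRPL13, MRPL50, MRPS7, MRPS9, MRPS25 and MRPS35 made up the rest of the 17. MRPL36 lay just outside at 0.38 (adjusted p = 0.0597), and the lowest slopes were -0.17 for MRPL49 (adjusted p = 0.27) and -0.17 for MRPL28 (adjusted p = 0.0889).

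MRPL1 at day 3 was at 16.8, 19 and 18.1 CPM with DOX against 19.5, 22.5 and 22 CPM with DMSO in sgZBTB11 #1, at 18.6, 18.1 and 18.9 CPM against 23.8, 23.5 and 22.9 CPM in sgZBTB11 #2, and at 19.7, 22.5 and 20.8 CPM against 21.3, 20.2 and 22.7 CPM in sgNS. DOX lay below DMSO in both sgZBTB11 lines without overlap, and the groups overlapped in sgNS. MRPL39 and MRPS31 moved little in sgNS at day 5. MRPL39 was then at 25.8, 25.4 and 24.6 CPM with DOX against 25.2 and 26.7 CPM with DMSO in sgZBTB11 #1, at 21.1, 22.5 and 22.6 CPM against 25.8, 29.3 and 27.9 CPM in sgZBTB11 #2, and at 27.1, 28.2 and 27.8 CPM against 25.3, 29.7 and 27.1 CPM in sgNS. MRPS31 was at 15.2, 17.8 and 14.7 CPM with DOX against 19.2 and 19 CPM with DMSO in sgZBTB11 #1, at 15.3, 15.4 and 14.5 CPM against 18.1, 18.6 and 18.4 CPM in sgZBTB11 #2, and at 16.1, 15.6 and 17.2 CPM against 16.5, 15.1 and 16.3 CPM in sgNS. The DOX libraries of MRPS31 lay below the DMSO libraries in both sgZBTB11 lines, and MRPL39 was apart only in sgZBTB11 #2. By edgeR MRPS31 was called in sgZBTB11 #2 (adjusted p = 0.00869) and not in sgZBTB11 #1 (adjusted p = 0.119).

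The 17 members with a called slope had a median change with DOX of -0.049 in sgZBTB11 #1 and -0.21 in sgZBTB11 #2 at day 3, against 0.03 in sgNS. At day 5 their medians were -0.074 in sgZBTB11 #1 and -0.321 in sgZBTB11 #2, against 0.203 in sgNS. In sgZBTB11 #2, the line in which ZBTB11 fell further, all 17 were below 0 at both times. The other 60 members had medians of -0.054 in sgZBTB11 #1 and -0.058 in sgZBTB11 #2 at day 3, against 0.008 in sgNS. In sgZBTB11 #1 the 17 had thus fallen no further than the others at day 3. The medians of the other 60 at day 5 were -0.023 in sgZBTB11 #1 and -0.029 in sgZBTB11 #2, against 0.081 in sgNS. At day 1 the 17 were at -0.047 in sgZBTB11 #1 and -0.048 in sgZBTB11 #2, and the other 60 at -0.064 and -0.043. These medians describe libraries that also entered the slope.

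**Figure D3:**
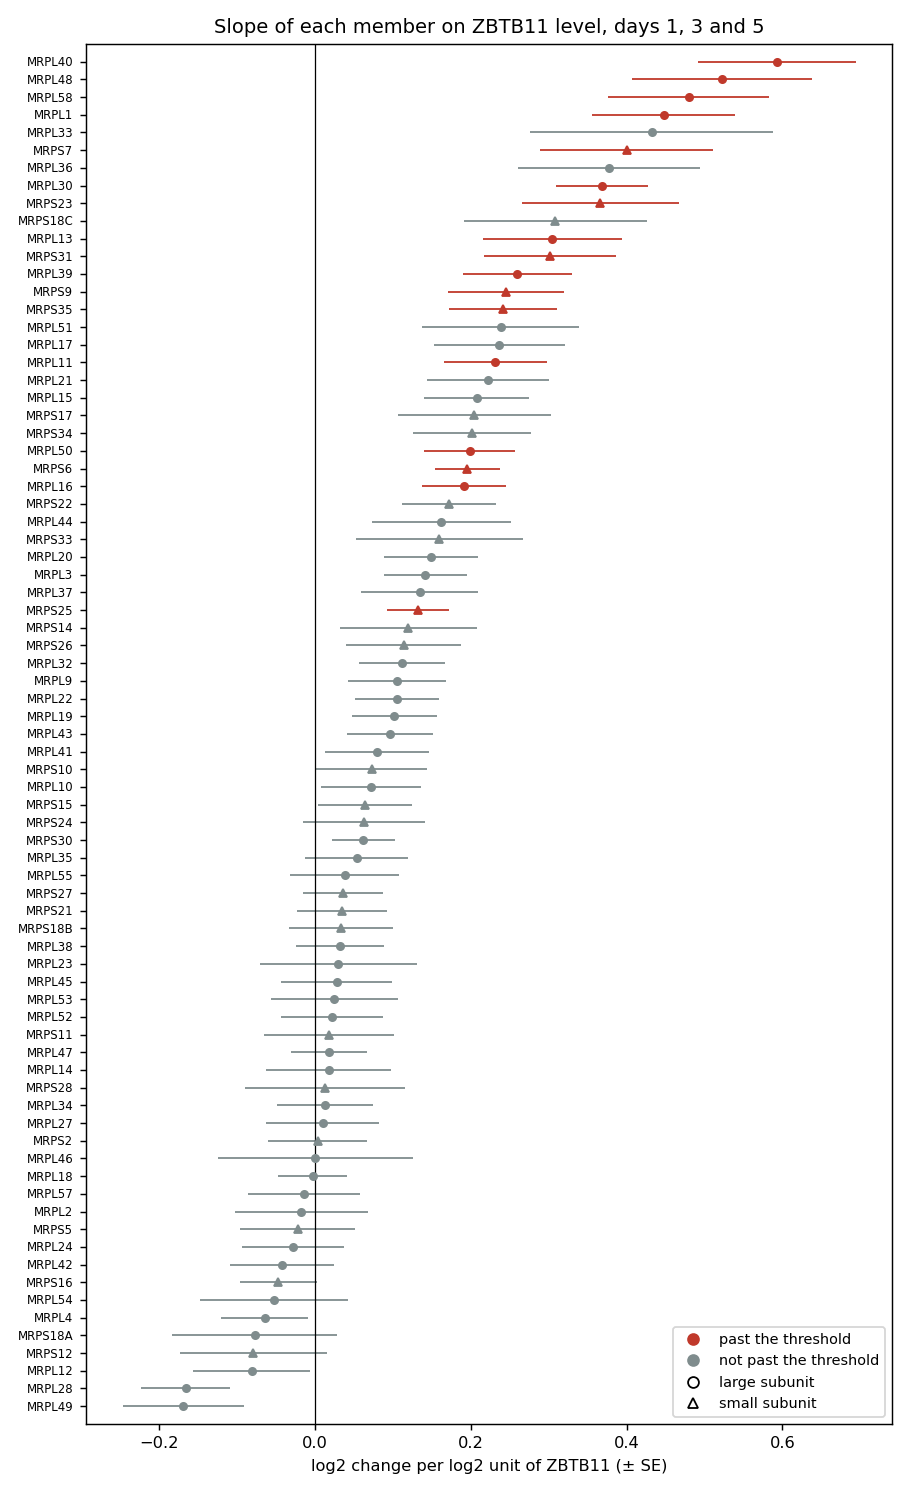
Slope of log2 level on ZBTB11 log2 level, with its SE, for the 77 members over the 52 libraries of days 1, 3 and 5. Circles are large subunit and triangles small subunit members, and red marks an adjusted p below 0.05. The 17 red points all lie above 0, with MRPL40 highest at 0.59.

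**Figure D4:**
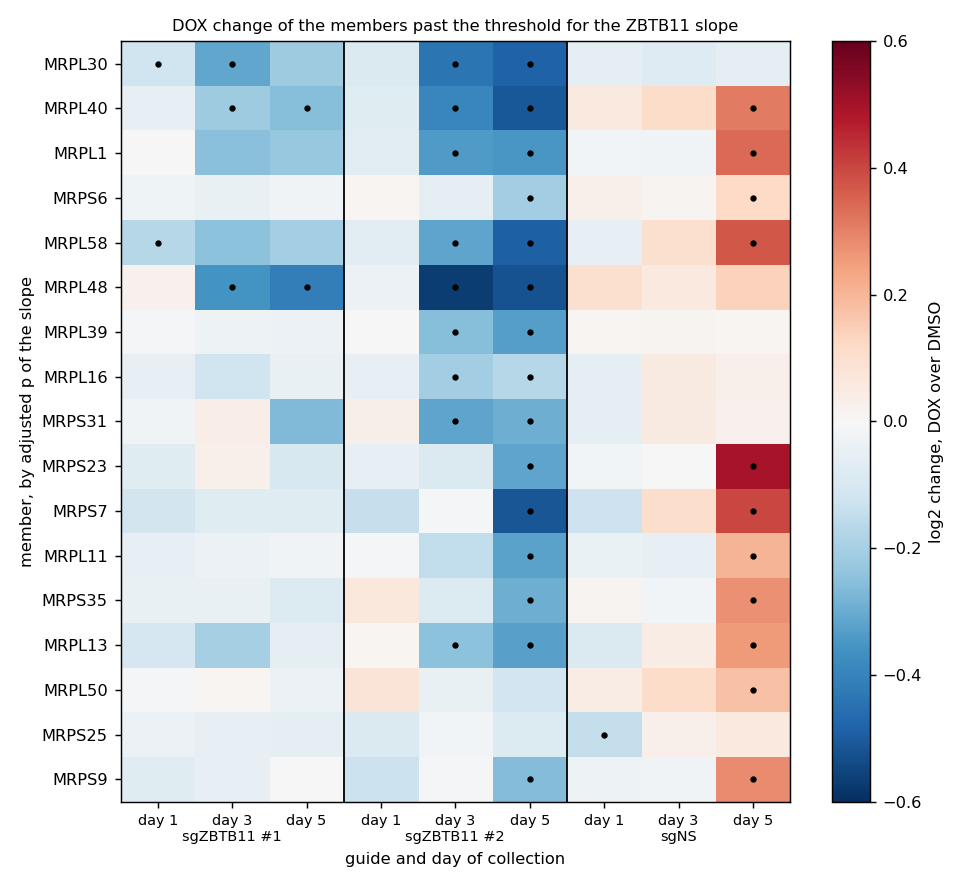
Log2 change with DOX of the 17 members with a called slope, by line and by days 1, 3 and 5. Blue and red cells are lower and higher with DOX, and a dot marks an adjusted p below 0.05. At day 5 the sgZBTB11 #2 column is below 0 in all 17. The sgNS column is then below 0 in 1 of the 17, with a median of 0.203, and MRPL40, MRPS7 and MRPS23 are above 0.

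The number of slopes called moved with the libraries and terms in the fit. With the 5 hr libraries included 7 were called, 6 of them above 0, and with the trend on length removed 11, 10 of them above 0. Without the DOX term 25 were called, 24 of them above 0. With the libraries of day 5 left out, edgeR called 0 members and 11 genes in all, and the slopes were 0.42 for MRPL40 (adjusted p = 0.134), 0.29 for MRPL30 (adjusted p = 0.134) and 0.45 for MRPL48 (adjusted p = 0.584). With the sgNS libraries left out as well as the DOX term, 32 were called, 31 of them above 0. Apart from the fit without day 5, the share of all genes called in these alternative fits is not given here. Their counts can therefore not be read as a stronger or weaker link to ZBTB11. The fits without day 5 and without sgNS were chosen after seeing the data. The count was 6 without sgNS DOX day 5 replicate 3 and 8 without sgNS DOX day 5 replicate 1, sgZBTB11 #2 DOX day 5 replicate 1 or 3, or sgZBTB11 #2 DMSO day 5 replicate 2. It was 9 without sgZBTB11 #2 DOX day 5 replicate 2, sgZBTB11 #2 DMSO day 5 replicate 1 or 3, or sgNS DMSO day 5 replicate 1 or 2, and 11 without sgNS DOX day 3 replicate 3.

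The called members were spread over the ribosome. Slopes were called in 10 of 51 large subunit members (median 0.079) and in 7 of 26 small subunit members (median 0.117). By origin they were called in 9 of 31 members found only in mitochondria and in 8 of 46 with a bacterial homolog. Net of sgNS at day 5, 21 of 51 large subunit members (median -0.136) and 14 of 26 small subunit members (median -0.202) were lower. Of the 6 members assigned here to the central protuberance, MRPL40 and MRPL48 were lower at day 3, at day 5 and in the slope. The other 4, MRPL18, MRPL27, MRPL38 and MRPL46, had slopes of -0.0034, 0.0098, 0.0324 and 0.0001. None of the 7 members assigned to the exit tunnel side, where the nascent chain leaves, had a called slope. Of the 5 assigned to the stalk and its base, which binds translation factors, 1 did (MRPL11). MRPL58 and MRPL39, which had called slopes, were among the members given no region. The counts may therefore not cover each region in full. Differences between these classes were not tested.

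At day 1 edgeR and DESeq2 called 0 members net of sgNS, where edgeR called 0.0737% of all genes. By edgeR 7 members had an unadjusted p below 0.05, as did 1048 of the 16275 genes tested. Within the lines, 12 members were lower and 1 higher in sgZBTB11 #1 (4.84% of all genes called), 4 lower and 3 higher in sgZBTB11 #2 (7.88%), and 3 lower and 1 higher in sgNS (2.19%). MRPL24, the homolog of bacterial L24, was at 68.9, 73.7 and 75.6 CPM with DOX against 61.9, 60.2 and 60.9 CPM with DMSO in sgZBTB11 #1. In sgZBTB11 #2 it was at 77.7, 85.2 and 75.2 CPM with DOX against 62.2, 68.4 and 64.4 CPM with DMSO, and in sgNS at 90.6, 91.7 and 91.2 CPM with DOX against 73.2 and 80.2 CPM with DMSO. MRPL24 was higher with DOX in every line, by 0.28 in sgZBTB11 #1 (adjusted p = 0.000144), 0.30 in sgZBTB11 #2 (adjusted p = 2.55e-05) and 0.27 in sgNS (adjusted p = 0.0011). HDGF overlaps MRPL24.

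MRPS2, the homolog of bacterial S2, was lower with DOX at day 1 in every line, with changes of -0.18 in sgZBTB11 #1 (adjusted p = 0.0038), -0.17 in sgZBTB11 #2 (adjusted p = 0.00555) and -0.21 in sgNS (adjusted p = 0.0055). MRPS34, a small subunit protein without a bacterial homolog, was at 62.2, 65 and 66.6 CPM with DOX against 72.4, 75.3 and 79.3 CPM with DMSO in sgZBTB11 #1 and at 61.2, 61.3 and 56.8 CPM against 70.1, 76.3 and 70.3 CPM in sgZBTB11 #2. In sgNS it was at 73.6, 77.8 and 72.2 CPM with DOX against 79.2 and 81.1 CPM with DMSO. The DOX libraries lay below the DMSO libraries in all 3 lines, and MRPS34 was called in both sgZBTB11 lines (adjusted p = 0.00289 and 0.000234). Calls in both sgZBTB11 lines at day 1 were made for 1.58% of all genes in the lower and 0.522% in the higher direction. EME2 overlaps MRPS34. The counts at day 1 were 7 in sgZBTB11 #1 without its DMSO replicate 3. In sgZBTB11 #2 they were 4 without its DOX or DMSO replicate 3 and 18 without its DMSO replicate 1, and in sgNS 2 without DOX replicate 1 or 2 and 1 without DMSO replicate 1 or 2.

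At 5 hr more members were called in the control line than in either sgZBTB11 line. With DOX, 20 were lower and 12 higher in sgZBTB11 #1, where 32.8% of all genes were called, and 2 were lower and 3 higher in sgZBTB11 #2, where 17% were called. In sgNS, 46 were lower and 5 higher, where 40.9% of all genes were called and 20.1% were lower. The summed level of the 77 genes was 5595 ± 60 CPM with DOX and 6232 ± 130 CPM with DMSO in sgNS (SD, n = 3 each). Net of sgNS, 30 members were higher and 2 lower, where 30% of the 15623 genes tested were called and 14.7% were higher. Most members are short genes, 67 of 77 below the median gene in transcript length, and a trend with length moved with these counts. With that trend removed, the counts were 4 lower and 15 higher in sgZBTB11 #1, 10 lower and 8 higher in sgNS, and 4 lower and 10 higher net of sgNS. The share of all genes called after this removal is not given here.

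MRPL12, the homolog of the bacterial stalk protein L7/L12, was at 113, 115 and 122 CPM with DOX against 118, 110 and 118 CPM with DMSO in sgZBTB11 #1 at 5 hr. In sgZBTB11 #2 it was at 132, 130 and 134 CPM with DOX against 129, 124 and 133 CPM with DMSO, and in sgNS at 112, 126 and 115 CPM with DOX against 144, 150 and 150 CPM with DMSO. The groups overlapped in both sgZBTB11 lines and were apart in sgNS, and MRPL12 was higher by 0.34 net of it (adjusted p = 4.6e-07). The net change was 0.32 for MRPL41 (adjusted p = 6.38e-06) and 0.34 for MRPS11 (adjusted p = 0.000383), and in the other direction -0.23 for MRPS35 (adjusted p = 5.91e-05) and -0.22 for MRPL44 (adjusted p = 0.0351). MRPS18A was higher with DOX in both sgZBTB11 lines and net of sgNS, as were 18 genes in all (0.115%). It was at 37.6, 36.6 and 39.8 CPM with DOX against 32.9, 33.7 and 34.2 CPM with DMSO in sgZBTB11 #1, at 37.4, 38.3 and 37.6 CPM against 36.4, 35 and 31.1 CPM in sgZBTB11 #2, and at 41.8, 40.7 and 40.6 CPM against 44.9, 43.4 and 41.1 CPM in sgNS. MRPS18A was higher with DOX in each sgZBTB11 line without overlap, and the groups overlapped in sgNS. The count in sgZBTB11 #2 was 2 without its DOX replicate 3 or DMSO replicate 2. It was 3 without its DOX replicate 2, its DMSO replicate 1, sgZBTB11 #1 DOX or DMSO replicate 2, or sgNS DOX replicate 3.

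The third question was how the members moved with time in culture without DOX. Whether the sgZBTB11 guides lowered ZBTB11 without DOX was not tested here. Over the 34 DMSO libraries, averaged over the 3 lines, the summed level of the 77 genes was 5969 ± 240 CPM at 5 hr (SD, n = 9), then 5438 ± 260 CPM on day 1 (n = 8), 3728 ± 80 CPM on day 3 (n = 9) and 3415 ± 56 CPM on day 5 (n = 8). At day 1 against 5 hr, 41 members were lower and 20 higher, where 67.2% of the 17598 genes tested were called, and with the trend on length removed 30 were lower and 32 higher. At day 3 against day 1, 70 were lower and 3 higher, where 79.8% of all genes were called and 38.4% were lower. At day 5 against day 3, 57 were lower and 9 higher, where 65.3% of all genes were called and 34.6% were lower. The median changes of the members were -0.07, -0.649 and -0.277 in the 3 intervals, against 0.0149, 0.0466 and -0.0203 for all genes. Each time was a separate sampling, so that time in culture and any difference in handling between samplings cannot be told apart.

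ZBTB11 itself changed by -0.17, 0.04 and 0.09 over the same intervals in DMSO (adjusted p = 1.51e-05, 0.235 and 0.0123). The share of counts from mitochondrial DNA was 13.6%, 10.8%, 19.4% and 30% at 5 hr and days 1, 3 and 5. Among counts from nuclear genes alone, the members took 0.639%, 0.633%, 0.5% and 0.458% at these times, so that the lower share at days 3 and 5 was also present without the mitochondrial counts. With the mitochondrial genes left out before scaling, all 23 changes named for time kept their calls. They had been picked as the largest rises and falls, so that this says nothing of the other members. How far the mitochondrial counts account for the fall in CPM was not tested. By the sum of the interval changes in DMSO, 72 of the 77 members were lower at day 5 than at 5 hr, with a median of 0.533 times the starting level. This sum was not tested and was not counted over all genes.

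**Figure D5:**
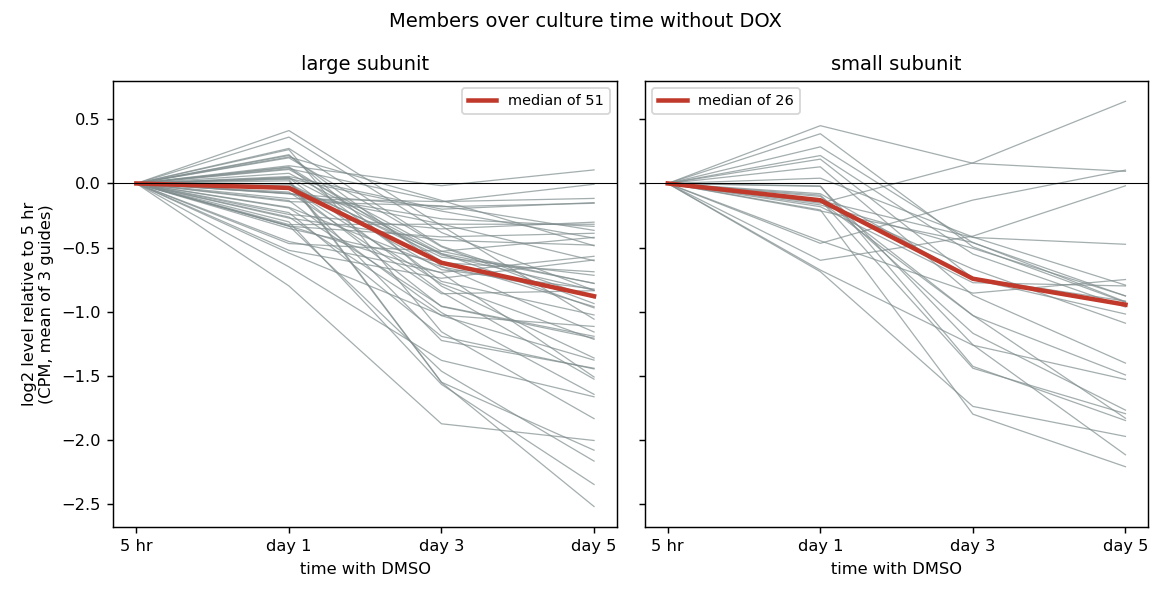
Log2 level of each member in DMSO relative to 5 hr, averaged over the 3 lines, at 5 hr and days 1, 3 and 5, for 51 large subunit members and 26 small subunit members. Thin lines are members and the red line is the median of the subunit. Most lines fall between days 1 and 3, and MRPS6 ends above its start.

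The members that fell furthest over the course were MRPS18A, MRPL12 and MRPS12. MRPS18A was at 37 ± 4.9, 36.8 ± 3.6, 12.6 ± 1.6 and 6.58 ± 1.4 CPM at 5 hr and days 1, 3 and 5 (SD, n = 9, 8, 9 and 8), which is 0.176 times its starting level at the end, and MRPL12 ended at 0.198 times its own. MRPS18A fell by 1.55 between days 1 and 3 (adjusted p = 4.94e-36) and by 0.98 between days 3 and 5 (adjusted p = 2.35e-19). MRPS12, the homolog of bacterial S12 at the decoding site, fell by 1.57 between days 1 and 3 (adjusted p = 3.36e-40), and MRPL46 and MRPL37, large subunit proteins, by 1.56 and 1.40. Between days 3 and 5, MRPS34, MRPL54 and MRPS24 fell by 0.87, 0.83 and 0.82. MRPL33, MRPS23, MRPS17 and MRPL36 fell earliest, by 0.79, 0.68, 0.67 and 0.64 between 5 hr and day 1.

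Against this trend, 27 of the 77 members were higher in at least 1 interval, a count not made over all genes. In the single intervals 20, 3 and 9 members were higher, against 6003, 7292 and 5414 of all 17598 genes tested. MRPS6, the homolog of bacterial S6, was at 206 ± 25, 183 ± 21, 230 ± 19 and 324 ± 28 CPM at 5 hr and days 1, 3 and 5, or 1.57 times its starting level at day 5, and it rose by 0.33 and 0.47 in the last 2 intervals (adjusted p = 2.78e-22 and 6.73e-29). MRPS25, a protein without a bacterial homolog, fell by 0.59 between 5 hr and day 1 and rose by 0.21 and 0.38 in the later intervals. MRPS21, the homolog of bacterial S21, fell by 0.46 and then rose by 0.35 and 0.22, and MRPL20 fell by 0.51 and 0.20 and then rose by 0.13. Early rises were followed by falls: MRPS31, MRPL44, MRPS18B and MRPL49 rose by 0.46, 0.42, 0.40 and 0.37 between 5 hr and day 1 and fell by 0.27, 0.72, 0.86 and 0.73 between days 1 and 3. MRPL44, MRPS18B and MRPL49 fell again between days 3 and 5, by 0.74, 0.45 and 0.46. MRPL40 stayed near its start, at 65.8 ± 4.2, 60 ± 4.9, 59.6 ± 3.0 and 60.7 ± 4.1 CPM. Members with a called slope on ZBTB11 and the others had median changes of -0.576 and -0.677 between days 1 and 3.

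The sgZBTB11 lines were also compared with each other, as the change with DOX in sgZBTB11 #2 minus that in sgZBTB11 #1. At 5 hr, 16 members were higher and 10 lower by this difference, where 35.1% of all genes were called, and with the trend on length removed 2 were higher and 26 lower. MRPS25 at 5 hr was at 215, 212 and 219 CPM with DOX against 198, 193 and 197 CPM with DMSO in sgZBTB11 #2, and at 180, 178 and 180 CPM against 217, 229 and 234 CPM in sgZBTB11 #1, so that the lines moved in opposite directions (difference 0.49, SE 0.044, adjusted p = 1.71e-11). At days 1 and 3 edgeR and DESeq2 called 0 members, where edgeR called 0.0614% and 0.018% of all genes. By edgeR 5 and 9 members had an unadjusted p below 0.05, as did 1432 of 16275 and 1145 of 16645 genes tested. At day 5, 8 were lower in sgZBTB11 #2 and 1 higher, where 2.58% of all genes were called, and with the trend on length removed 4 were lower and 2 higher. MRPS7 differed by -0.44 (SE 0.084, adjusted p = 0.000671) and MRPL12 by 0.46 (SE 0.109, adjusted p = 0.00763). ZBTB11 itself differed by -0.48 at day 5 (adjusted p = 0.000258). The count at day 5 was 3 without sgZBTB11 #2 DOX replicate 1 or sgZBTB11 #1 DOX replicate 2, 4 without sgZBTB11 #1 DMSO replicate 1 or 2, and 5 without sgZBTB11 #2 DMSO replicate 1.

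Levels between genes are given per transcript length, in the authors' TPM. Over the 70 libraries MRPL51 averaged 299 ± 79 TPM (SD), MRPS6 271 ± 50 TPM, MRPL41 223 ± 26 TPM and MRPL33 187 ± 100 TPM. This order did not hold at every time. At 5 hr MRPL51 lay between 320 and 403 TPM and MRPS6 between 190 and 266 TPM (n = 18 each), while at day 5 MRPL51 lay between 155 and 231 TPM and MRPS6 between 285 and 380 TPM (n = 17 each). At the low end, MRPL46 averaged 15.6 ± 8.9 TPM, MRPL44 11.8 ± 4.8 TPM and MRPL49 11.6 ± 3.9 TPM, close to the 11.4 ± 2.4 TPM of ZBTB11.

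Genes that act with the members were taken as 3 lists. Of 5 other mitochondrial ribosomal proteins without an MRP symbol, DAP3 and PTCD3, both of the small subunit, had called slopes of 0.25 (SE 0.062, adjusted p = 0.0152) and 0.14 (SE 0.041, adjusted p = 0.0448). Of 10 mitochondrial translation factors, the initiation factors MTIF2 and MTIF3 did, at 0.33 (SE 0.073, adjusted p = 0.00529) and 0.38 (SE 0.074, adjusted p = 0.00129). Of 20 factors that assemble the mitochondrial ribosome, 0 had a called slope by edgeR. An unadjusted p below 0.05 was reached by 4 of the 20, and by 3009 of the 17833 genes tested. Net of sgNS at day 3 edgeR called 0 genes of any list. There 2 of 5, 3 of 10 and 1 of 20 had an unadjusted p below 0.05, as did 1712 of the 16645 genes tested. Net of sgNS at day 5 edgeR called 3 of 5, 3 of 10 and 5 of 20, all lower, where 10.3% of all genes were lower. The net change was -0.38 for DAP3 (adjusted p = 2.04e-06), -0.47 for MTIF3 (adjusted p = 4.26e-07) and -0.41 for NOA1, a GTPase of small subunit assembly (adjusted p = 0.00445). With time in DMSO, 4 of 5, 7 of 10 and 13 of 20 were lower at day 3 than at day 1, where 38.4% of all genes were lower.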

How the data were processed

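Total RNA was selected for poly(A) and sequenced in pairs on an AVITI, per the labels' protocols. The authors deposited expected counts and TPM for every gene, and RSEM and the GRCh38.p14 assembly are named in the submitters' processing notes, while the sources used here do not give aligner, annotation release, tool versions or strand. Expected counts, of which 5.13% were not whole, were rounded. R 4.3.3 ran edgeR 4.0.16 (filterByExpr, TMM scaling, robust quasi-likelihood test with Benjamini-Hochberg adjustment over all genes, threshold 0.05), with 1 fit per time, 1 over the DMSO libraries and 1 for the slope, each checked on simulated data. Net changes share libraries with the changes within each line. DESeq2 1.42.0, RLE scaling, no filter, a removed length trend, a replicate block and leaving out each library were the alternatives. For these alternatives the share of all genes called is not given. The deposited TPM served to compare levels between genes and, for a few members, means with DOX and DMSO in sgNS at day 5. Transcript length was taken from the ratio of counts to TPM. Replicate numbers come from the sample titles.

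The members and lists were chosen with earlier results of these data known. Genes are named by rule: up to 10 members past the threshold net of sgNS per day or for the slope, members called in both sgZBTB11 lines, up to 3 in sgNS per day, up to 4 for the guide difference, the 4 largest rises and falls per DMSO interval with a mean of at least 5 CPM, up to 3 each way net at 5 hr, and the 4 highest and 3 lowest by TPM. Members just outside a threshold, the members of small classes and the genes of the other lists were named after their values were seen.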

Additional observations from a re-analysis of the deposited data

Results flagged for a closer look

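The change with DOX differed between sgZBTB11 #2 and sgZBTB11 #1, tested as the difference itself with edgeR, in 26 members at 5 hr, where 35.1% of all genes were called, and in 9 members at day 5, where 2.58% of all genes were called. At 5 hr 16 of the 26 were higher and 10 lower, and with the trend on transcript length removed 2 were higher and 26 lower. At 5 hr the difference, sgZBTB11 #2 minus sgZBTB11 #1 on the log2 scale, was 0.49 for MRPS25 (adjusted p = 1.71e-11), -0.30 for MRPS35 (adjusted p = 8.19e-06), 0.32 for MRPL41 (adjusted p = 5.2e-05) and -0.46 for MRPL44 (adjusted p = 8.35e-05). MRPL44 was at 19.8, 20.3 and 19.6 CPM with DOX against 22.7, 22.2 and 22.2 CPM with DMSO in sgZBTB11 #2, and at 24.5, 22 and 24.8 CPM against 18.9, 20.6 and 18.4 CPM in sgZBTB11 #1, so that the lines moved in opposite directions.

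At day 5 the difference was -0.44 for MRPS7 (adjusted p = 0.000671), -0.19 for MRPS6 (adjusted p = 0.00176), 0.46 for MRPL12 (adjusted p = 0.00763) and -0.44 for MRPL33 (adjusted p = 0.0187). MRPS6 was at 305, 306 and 319 CPM with DOX against 353, 356 and 362 CPM with DMSO in sgZBTB11 #2, and at 285, 284 and 294 CPM against 291 and 296 CPM in sgZBTB11 #1. MRPL12 ran the other way from the other 3, at 23.7, 27.5 and 24.4 CPM with DOX against 20.4, 21.2 and 23.5 CPM with DMSO in sgZBTB11 #2 and at 23.5, 22.5 and 21.3 CPM against 28 and 25.6 CPM in sgZBTB11 #1. MRPL33 missed the threshold in 6 of 17 fits that left out 1 library (largest adjusted p = 0.107), and MRPL12 in 1, without sgZBTB11 #1 DMSO replicate 1 (adjusted p = 0.128).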

How the results depend on the processing

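No named member changed sign under any alternative run. RLE scaling kept the calls of all 83 named values and DESeq2 of 73. DESeq2 called 19 members for the slope, and over 1.5 times fewer than edgeR in these comparisons: at 5 hr 21 net, 17 for the guide difference and 2 in sgZBTB11 #2, at day 1 8 in sgZBTB11 #1, 4 in sgZBTB11 #2 and 2 in sgNS, at day 3 1 net, 1 in sgZBTB11 #1 and 6 in sgZBTB11 #2, and at day 5 3 for the guide difference. In all 3 tests it called 0 at day 3 and 1 at day 5. With the length trend removed the counts were 19 in sgZBTB11 #1, 18 in sgNS and 14 net at 5 hr, 3 in sgZBTB11 #1 and 3 net at day 3, and 11 for the slope. Without a filter on low counts sgZBTB11 #2 had 3 calls at 5 hr. The slope gave 7 calls with the 5 hr libraries included, 32 without sgNS and the DOX term, and 0 without day 5. The share of all genes called is not given for these runs, apart from the slope fit without day 5. The cause of these shifts was not tested. The deviations of same-numbered libraries had a median correlation of 0.004 over 170 pairs, and 9 pairs were over 0.1. For libraries with different numbers the median was -0.002 over 340 pairs, and 20 were over 0.1. At 5 hr, 5 of 45 same-numbered pairs and 4 of 90 others were over 0.1. Pairing by replicate number is not excluded by these values. With the replicate block the counts were 6 net at day 3, 35 net at day 5, 15 for the slope, and 60, 73 and 65 for the DMSO intervals, against 61, 73 and 66 without it, and all 83 named calls were kept.

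Leaving out 1 library at a time gave, at 5 hr, 26 to 32 calls in sgZBTB11 #1, 2 to 7 in sgZBTB11 #2, 42 to 51 in sgNS, 22 to 34 net and 18 to 28 for the guide difference. At day 1 these were 7 to 17, 4 to 18, 1 to 5, 0 to 0 and 0 to 0, and at day 3 they were 1 to 5, 7 to 15, 0 to 0, 1 to 8 and 0 to 0. At day 5 they were 0 to 3, 21 to 28, 20 to 32, 29 to 37 and 3 to 10. All 3 tests together gave 0 to 0 at day 1, 0 to 3 at day 3 and 0 to 2 at day 5. The slope gave 6 to 22, and the DMSO intervals 58 to 62, 72 to 73 and 61 to 67. Where 1 DMSO library was left, it was assumed to vary like the other groups. MRPL48, with the lowest CPM of the 5 members called net at day 3, also had the widest SE (0.104).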
